A study of Homo sapiens with 6 samples.

Results

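Biglycan (BGN), SPARC, 4 glypicans (GPC1, GPC3, GPC4 and GPC6) and versican (VCAN) were examined in HepG2 cells, an established human liver cancer line. The 7 genes were taken by name from the 29153 genes of the deposited table, and BGN and SPARC were chosen by the opposite directions of their log2 fold changes between the groups below, so their values are given as a description without a test. Total RNA was sequenced 72 h after lentiviral delivery of a control hairpin (sh-NC, 3 libraries) or of a hairpin against LINC01977 (sh-LINC01977, 3 libraries), a long noncoding RNA. Both groups carried a lentivirus and, per the study's methods, infected cells were selected with puromycin. The knockdown rests on 1 cell line and 1 hairpin, and nothing states that the libraries of a group came from separate cultures, so the p-values measure the spread between these libraries, which may be technical. The comparison asked how transcripts of these matrix and cell-surface genes differed between cells with the hairpin against LINC01977 and control cells.

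Proteoglycans are proteins that carry long sulfated sugar chains. Glypicans are anchored in the outer leaflet of the plasma membrane by a lipid and carry heparan sulfate, through which they bind growth factors such as Wnts, Hedgehogs and fibroblast growth factors. GPC3 is a fetal liver glypican that is silent in most adult livers and is widely used as a marker of hepatocellular carcinoma. BGN is a small leucine-rich proteoglycan of the matrix that binds collagen and TGF-beta, VCAN is a large chondroitin sulfate proteoglycan that binds hyaluronan, and SPARC is a matricellular glycoprotein that binds collagen and calcium without forming part of the matrix scaffold. In liver tissue BGN, SPARC and VCAN are known mainly from stellate cells and fibroblasts.

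Sequence just upstream of the gene starts is shown for BGN and for members that passed the test below as higher in sh-LINC01977 libraries, which GPC4 did not. Printed bases had to lie outside the gene's own interval, which left out VCAN. The sequences are shown because their base composition varies widely. They come from the RefSeq promoter table (GRCh38.p14), which held 6 of the 7 members and covers 250 bases before to 50 bases after each start. The first 195 bases of each window are printed 5′ to 3′ along the gene's strand, and capitals mark matches on either strand to GGGCGG, the core of the GC box, or to TATAAA, the letters of the TATA box. The BGN bases are chrX:153494730-153494924 (plus strand), the GPC1 bases chr2:240435413-240435607 (plus strand) and the GPC6 bases chr13:93226557-93226751 (plus strand). The BGN bases lie inside the interval of HAUS7, in none of its exons, and part of the GPC6 bases lies inside that of AL354811.1, both on the opposite strand.
BGN: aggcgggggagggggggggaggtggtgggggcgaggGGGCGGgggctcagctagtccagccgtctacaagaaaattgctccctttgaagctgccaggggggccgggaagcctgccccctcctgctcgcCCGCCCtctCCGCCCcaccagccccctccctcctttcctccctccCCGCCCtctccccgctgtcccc
GPC1: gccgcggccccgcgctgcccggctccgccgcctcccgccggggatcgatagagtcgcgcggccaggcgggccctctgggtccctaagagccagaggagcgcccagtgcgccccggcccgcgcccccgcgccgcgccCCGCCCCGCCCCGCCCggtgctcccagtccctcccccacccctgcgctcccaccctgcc
GPC6: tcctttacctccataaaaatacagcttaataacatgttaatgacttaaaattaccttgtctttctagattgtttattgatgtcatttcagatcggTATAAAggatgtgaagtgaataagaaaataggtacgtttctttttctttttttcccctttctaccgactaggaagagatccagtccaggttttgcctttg
Over the whole 300 bases, GGGCGG matched 5 times in BGN and 4 times in GPC1, where neighbouring matches share a base, against 2 in GPC4, 1 in VCAN and no match in SPARC or GPC6. The motif was present in 45.0% of the 35116 promoters in the table. TATAAA matched once, in GPC6, and was present in 11.5% of all promoters. Neither TGANTCA, the AP-1 motif, nor TGGGAA, the core bound by the Notch effector RBPJ, matched in any of the 6 windows, where N stands for any base, and these motifs were present in 7.71% and 24.0% of all promoters. The GC content of the window was 83.3% in GPC1, 71.7% in BGN and 40.0% in GPC6, against a median of 58.7% over all promoters. The TATAAA letters in GPC6 begin at base 96 of the window, 155 bases before the RefSeq start. A match is a run of letters and was not tested as a binding site.

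The libraries held between 49929024 and 60441515 counts, and Pearson correlations of log2(CPM + 0.5), where CPM are counts scaled to the library total times its TMM factor, were 0.985 to 0.987 within a group and 0.977 to 0.979 across groups. The targeted LINC01977 had 4, 0 and 16 counts in sh-NC and 0, 0 and 4 in sh-LINC01977 libraries, so its knockdown could not be checked at this depth and groups rest on the labels. The titles call the sh-LINC01977 libraries sh3, which names no target. That LINC01977 was the target is taken from the study, which describes knockdown and control cells. The study also reports a qRT-PCR check of its knockdown in HepG2 cells, without naming these libraries. Liver-type expression was clear from the 10 hepatocyte markers, while the name HepG2 rests on the labels. The summed level of these markers was 4900 to 5285 FPKM (fragments scaled to transcript length and library total) in sh-NC and 3660 to 3697 FPKM in sh-LINC01977 libraries. Of these markers 7 were lower in sh-LINC01977 libraries by the quasi-likelihood test of edgeR (adjusted p under 0.05 by Benjamini-Hochberg, BH), and 3 did not pass. Of all 13452 genes tested 8.07% were lower. Whether the difference in these markers has a part in the changes below was not tested. In bulk RNA, fewer cells with a transcript and less of it per cell cannot be told apart.

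The 7 genes spanned a wide range of levels. GPC3 (ENSG00000147257, chromosome X, 133535745 to 133985895, minus strand) was by far the most abundant, at 371, 378 and 432 FPKM in sh-NC and 452, 397 and 451 FPKM in sh-LINC01977 libraries, above 99.5% of the 13452 genes with a mean of at least 0.5 FPKM. In both groups the order by mean FPKM, which is a level per transcript length, was GPC3, SPARC, GPC6, VCAN, GPC1, BGN and GPC4. No 2 neighbours in this order overlapped in their ranges over the 3 libraries of a group, although in sh-NC libraries the highest VCAN value (4.80 FPKM) lay close to the lowest GPC6 value (4.99 FPKM) and the lowest VCAN value (3.15 FPKM) close to the highest GPC1 value (3.07 FPKM). BGN passed the filter on low values only through the sh-LINC01977 libraries, and GPC4 did not pass it. The ranking of the 7 genes was thus the same in both groups, while the distances between their levels were not.

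**Figure D1:**
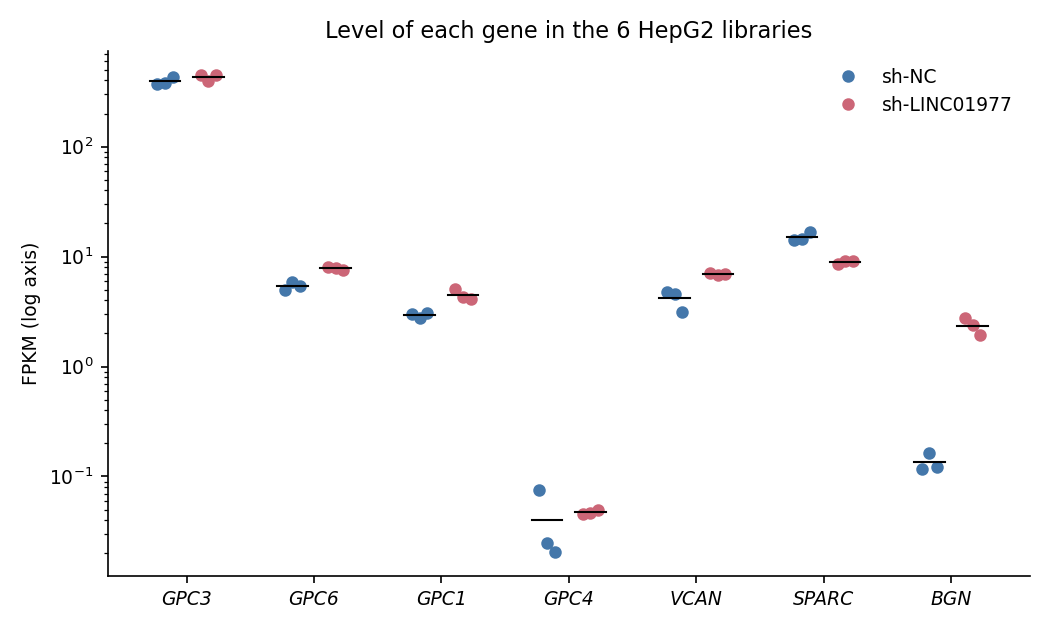
FPKM of each member in every library on a log axis, with sh-NC and sh-LINC01977 libraries in different colours and a bar at each group's mean. GPC3 stands at 394 and 433 FPKM, BGN moves from 0.134 to 2.35 FPKM, and SPARC moves from 15.1 to 8.94 FPKM.

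BGN (ENSG00000182492, chromosome X, 153494939 to 153509554, plus strand) was close to the lower end of detection in control cells and clearly present in sh-LINC01977 cells. The sh-NC libraries held 21, 25 and 23 BGN counts, and the sh-LINC01977 libraries held 448, 432 and 291. On the FPKM scale this was 0.118, 0.162 and 0.122 against 2.75, 2.37 and 1.94. All sh-LINC01977 values lay far above all sh-NC values. Relative to their means the groups were about equally tight, with a coefficient of variation of CPM of 16.0% in sh-NC and 17.9% in sh-LINC01977 libraries. The mean level went from 0.428 ± 0.0685 CPM to 6.96 ± 1.25 CPM (SD, n = 3), a 16.3-fold difference and a log2 fold change of 4.02, not tested because BGN was picked for this change. Leaving out single libraries gave values from 3.90 to 4.16, and limma on log2(FPKM + 1), whose pseudocount lies above the control level, gave 1.56. In sh-LINC01977 libraries 33.7% of the tested genes had a lower mean FPKM than BGN.

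Since stellate cells and fibroblasts are known sources of BGN, markers of other cell types were read beside it. Of 12 mesenchymal markers 7 were among the genes analysed here and 3 passed the filter. Their summed level was 20.1 to 20.3 FPKM in sh-NC and 20.8 to 25.9 FPKM in sh-LINC01977 libraries, most of it ACTA2, smooth muscle actin, at 16.7 ± 0.516 and 16.5 ± 1.51 FPKM (SD, n = 3). PDGFRB, a growth factor receptor of pericytes and stellate cells, was higher, at 0.411, 0.583 and 0.706 FPKM in sh-NC against 1.89, 1.55 and 1.49 FPKM in sh-LINC01977 libraries (log2 fold change 1.47, BH-adjusted p = 0.00620, edgeR quasi-likelihood). COL1A1, a chain of type I collagen, had 2.72 ± 0.611 against 4.72 ± 0.853 FPKM with an adjusted p of 0.0504 in the same edgeR fit, short of the threshold, and passed it in 9 of 16 alternatives, limma and DESeq2 among them. COL3A1, the type III collagen chain, was at 0 in 5 of 6 libraries, and VIM, vimentin, was at 0.181 ± 0.0670 FPKM in sh-NC and 0.0615 ± 0.0455 FPKM in sh-LINC01977 libraries. COL1A2, DCN, LUM, FAP and POSTN had no entry among the 29153 genes, so their levels could not be read. Of 6 endothelial markers 4 were listed, with a sum of 0.273 to 0.441 FPKM in sh-NC and 0.220 to 0.315 FPKM in sh-LINC01977 libraries. Of 6 blood cell markers 5 were listed, with a sum of 613 to 624 FPKM in sh-NC and 528 to 544 FPKM in sh-LINC01977 libraries, nearly all of it lysozyme (LYZ), while the leukocyte gene PTPRC was at 0 in 5 of 6 libraries. In the sh-LINC01977 libraries, in which BGN was highest, COL3A1, VIM and PTPRC were at or near 0, whereas ACTA2, COL1A1 and LYZ were present. PDGFRB moved with BGN, and COL1A1 also had a higher mean in these libraries. The markers thus went different ways, and the part of other cells in the BGN level was not tested.

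SPARC (ENSG00000113140, chromosome 5, 151661096 to 151687165, minus strand) went the other way from a much higher level. It had 4771, 4284 and 5919 counts in sh-NC libraries against 2733, 3305 and 2694 counts in sh-LINC01977 libraries. The FPKM values were 14.2, 14.3 and 16.6 against 8.52, 9.19 and 9.11, and the groups did not overlap. The mean level was 91.7 ± 7.71 CPM in sh-NC and 52.1 ± 2.33 CPM in sh-LINC01977 libraries (SD, n = 3), a 1.76-fold lower level and a log2 fold change of -0.82. Leaving out single libraries gave -0.85 to -0.74. SPARC was also chosen for its change, so no test is given. The ratio of SPARC to BGN, in FPKM, was 121, 88.4 and 136 in sh-NC libraries against 3.10, 3.89 and 4.71 in sh-LINC01977 libraries, so SPARC remained the more abundant of the pair in every library.

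Among the 5 members not picked for their change, GPC1, GPC6 and VCAN were higher in sh-LINC01977 libraries in the edgeR fit (BH-adjusted p under 0.05 over all tested genes), and GPC3 and GPC4 did not pass. Of all tested genes, 15.1% passed in either direction, 7.05% as higher and 8.07% as lower, or 948 and 1085 genes, and scaling by library totals gave 1455 and 768. The 3 that passed did not overlap between groups, which was also true of 37.1% of all tested genes and of 18.8% in the higher direction. These genes were listed with results of these libraries known, so nothing is read from their count. None of the 3 reached a 2-fold change, the study's threshold together with an unadjusted P of 0.05, which 2.60% of tested genes passed, 1.55% as higher and 1.05% as lower.

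The glypicans did not move as a block. GPC6 (ENSG00000183098, chromosome 13, 93226842 to 94407401, plus strand), a glypican known for its role in limb and long bone growth, had 4.99, 5.83 and 5.35 FPKM in sh-NC and 8.04, 7.90 and 7.48 FPKM in sh-LINC01977 libraries. Each sh-LINC01977 library was above each sh-NC library, with a log2 fold change of 0.47 (SE 0.073, 95% interval 0.30 to 0.65, BH-adjusted p = 0.00855, edgeR quasi-likelihood). This call held in all 16 alternative analyses. GPC1 (ENSG00000063660, chromosome 2, 240435671 to 240468078, plus strand), a broadly expressed co-receptor for fibroblast growth factors, had 3.0, 2.74 and 3.07 FPKM in sh-NC and 5.07, 4.26 and 4.07 FPKM in sh-LINC01977 libraries. Again the groups did not overlap, and the log2 fold change was 0.54 (SE 0.11, 95% interval 0.29 to 0.79, adjusted p = 0.0177 from the same edgeR test). Leaving out the second sh-NC library (0.49, adjusted p = 0.0573 by edgeR) or the second sh-LINC01977 library (0.57, adjusted p = 0.0502) ended the call for GPC1.

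GPC3 did not pass, and its groups overlapped, since the third sh-NC library at 432 FPKM exceeded the second sh-LINC01977 library at 397 FPKM. Its log2 fold change was 0.07 (SE 0.070, 95% interval -0.09 to 0.24, adjusted p = 0.524 by edgeR), so a change of more than 0.24 on the log2 scale lies outside the interval. GPC4 (ENSG00000076716, chromosome X, 133300103 to 133415490, minus strand), which neighbours GPC3 on the X chromosome, was barely detected, with 26, 8 and 8 counts in sh-NC and 16, 17 and 16 counts in sh-LINC01977 libraries. In an edgeR fit of all 29153 genes, which called 5.36% of them, its log2 fold change was 0.17 (SE 0.63, 95% interval -1.30 to 1.63, adjusted p = 0.923), and a difference was not detectable at this depth. The direction for GPC4 turned when the second (-0.08) or the third (-0.14) of the sh-NC libraries was left out.

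By level, GPC3 supplied nearly all glypican transcript. It made up 97.8%, 97.7% and 98.1% of the summed FPKM of all 6 glypicans, GPC2 and GPC5 included, in sh-NC libraries against 97.1%, 96.9% and 97.4% in sh-LINC01977 libraries. The other 5 glypicans together had 8.58 ± 0.295 FPKM in sh-NC and 12.7 ± 0.760 FPKM in sh-LINC01977 libraries (SD, n = 3). For both quantities the groups did not overlap, and the exact two-sided permutation test gave p = 0.1, the smallest value that 3 libraries against 3 allow. The same exact test on CPM gave p = 0.1 for GPC1, GPC6 and VCAN, 0.3 for GPC3 and 1 for GPC4.

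**Figure D2:**
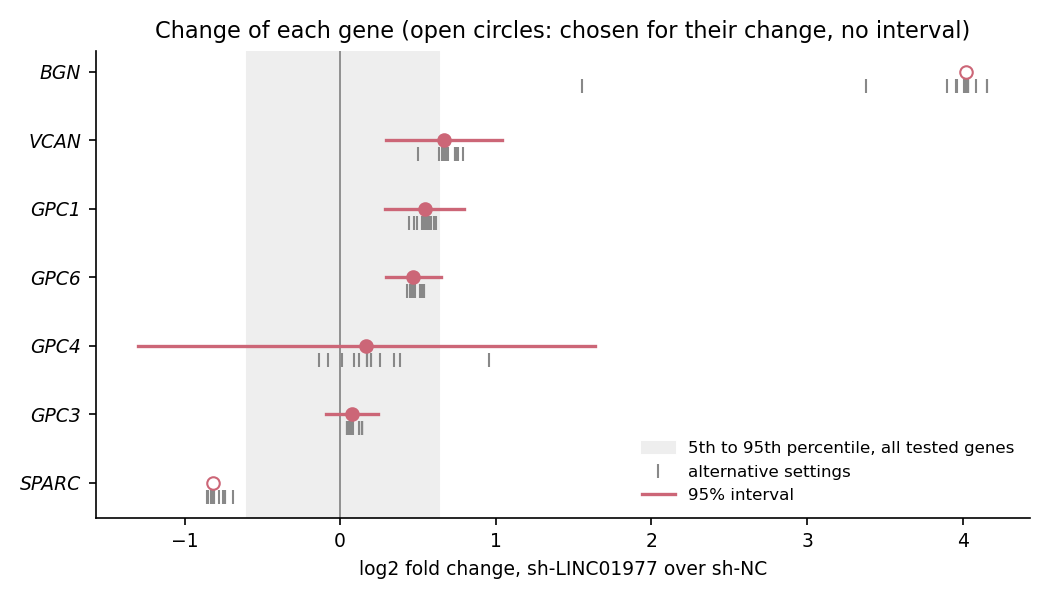
Log2 fold change, sh-LINC01977 over sh-NC, of each member, with 95% intervals for the tested members, open circles for BGN and SPARC, grey ticks for the alternative analyses and a grey band from the 5th to the 95th percentile of all tested genes (-0.60 to 0.63). The intervals of GPC1, GPC6 and VCAN lie above 0, and those of GPC3 and GPC4 include 0.

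VCAN (ENSG00000038427, chromosome 5, 83471465 to 83582303, plus strand) was higher and also more even between sh-LINC01977 libraries. It had 4.80, 4.60 and 3.15 FPKM in sh-NC libraries and 7.10, 6.83 and 6.97 FPKM in sh-LINC01977 libraries, with the third sh-NC library the lowest. The coefficient of variation of its CPM was 22.2% in sh-NC libraries against 1.76% with the hairpin. The log2 fold change was 0.67 (SE 0.16, 95% interval 0.29 to 1.04, BH-adjusted p = 0.0340, edgeR quasi-likelihood). The call depended on single libraries. It was lost without the second sh-NC library (0.74, adjusted p = 0.0635 by edgeR) and without the first (0.66, 0.0901), second (0.67, 0.0903) or the third (0.68, 0.0817) sh-LINC01977 library. SPARC was 3.60 times as abundant as VCAN by mean FPKM in sh-NC libraries and 1.28 times in sh-LINC01977 libraries.

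Genes whose intervals overlap the members were checked, because no source used here says if reads were counted by strand. BGN and HAUS7, a subunit of the augmin complex of the mitotic spindle on the opposite strand, share 578 bases of their gene intervals but no exonic base in GENCODE 29. HAUS7 had 489, 664 and 616 counts in sh-NC and 532, 645 and 450 counts in sh-LINC01977 libraries (log2 fold change -0.18, SE 0.17, adjusted p = 0.517 by edgeR). Its counts overlapped between groups. The transcript AL354811.1, on the opposite strand at the GPC6 start, had 172, 112 and 110 counts against 171, 86 and 87 counts, at most 7.67% of the GPC6 count (log2 fold change -0.23, adjusted p = 0.705 by edgeR), and AL009174.1 within GPC3 reached at most 0.232% of the GPC3 count. Other overlapping genes had at most 18 counts in any library.

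Within 250 kb of BGN, 7 genes reported here, including HAUS7, passed the filter, and of these 3 were lower in sh-LINC01977 libraries. Over all tested genes 8.07% were lower by the same call, and with so few neighbours nothing is read from their count. DUSP9, a phosphatase that inactivates MAP kinases, was lower by most, at 81.3, 81.1 and 78.6 FPKM in sh-NC and 47.8, 41.6 and 42.9 FPKM in sh-LINC01977 libraries (log2 fold change -0.93, SE 0.062, BH-adjusted p = 6.9e-04, edgeR quasi-likelihood). ZNF275, a zinc finger gene (log2 fold change -0.35), and SLC6A8, the creatine transporter (-0.38), also passed in the edgeR fit, with adjusted p of 0.0313 and 0.0336, but each lost its call without 5 of the 6 libraries in turn. TREX2, a DNA exonuclease and the closest tested gene that does not overlap BGN, had 207, 4 and 157 counts in sh-NC and 179, 181 and 278 counts in sh-LINC01977 libraries and did not pass (log2 fold change 0.82, SE 0.93). FAM58A (-0.54) and BCAP31 (-0.07) did not pass either. None of these 7 genes stood higher in sh-LINC01977 libraries without overlap between groups, which was true of 18.8% of all tested genes. BGN was picked for its rise, so its contrast with them was fixed by that choice and nothing is read from it.

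Near SPARC, 4 genes passed the filter within 250 kb. SLC36A1, a lysosomal amino acid transporter, was lower, at 3.20, 3.06 and 2.66 FPKM in sh-NC and 2.02, 1.74 and 2.01 FPKM in sh-LINC01977 libraries (log2 fold change -0.69, SE 0.10, BH-adjusted p = 0.00769, edgeR quasi-likelihood). ATOX1 (log2 fold change -0.18), AC091982.4 (-0.23) and G3BP1 (-0.16) did not pass. Over all tested genes 8.07% were lower by the same call, and with so few neighbours nothing is read from their count. SPARC was picked for its fall, so its likeness to SLC36A1 and its contrast with the other 3 genes rest on that choice.

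**Figure D3:**
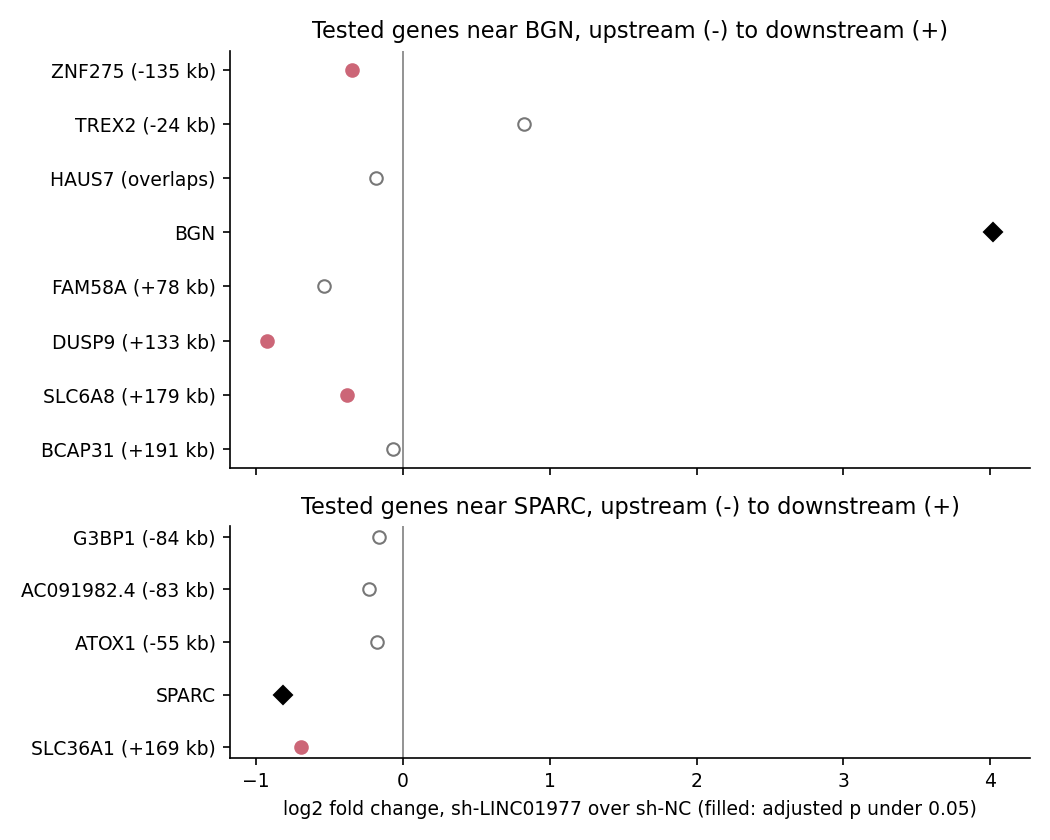
Log2 fold change, sh-LINC01977 over sh-NC, of BGN, SPARC and the tested genes reported within 250 kb of each, with the distance from BGN or SPARC in kb beside each gene name and filled points for genes past an adjusted p of 0.05 in edgeR. BGN, picked for its rise, is at 4.02 and its neighbours lie between -0.93 and 0.82. SPARC (-0.82), picked for its fall, and SLC36A1 (-0.69) are the lowest of their group.

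The other genes of proteoglycan biology were read from 10 lists with 115 genes, of which 91 were among the genes analysed here and 49 passed the filter. In the edgeR fit 7 rose and 8 fell with the hairpin against LINC01977, 14.3% and 16.3% of those tested against 7.05% and 8.07% of all tested genes. Their median log2 fold change was 0.03 and that of all tested genes -0.0010, and none reached a 2-fold change with an unadjusted P of 0.05. The other 34 did not pass. The lists were chosen with earlier results of these data known, so nothing is read from these shares.

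Among other proteoglycan core proteins, SDC3, a syndecan of nerve and muscle, was higher, at 1.0, 0.935 and 0.655 FPKM in sh-NC against 1.70, 1.55 and 1.78 FPKM in sh-LINC01977 libraries (log2 fold change 0.89, BH-adjusted p = 0.0188, edgeR quasi-likelihood), a call lost without any 1 of the 3 sh-LINC01977 libraries. SDC4, the most abundant syndecan in these cells, was at 78.0 ± 6.24 and 89.6 ± 4.23 FPKM and did not pass. SPOCK2, a testican of the SPARC family, was at 20.4 ± 0.761 FPKM in sh-NC and 25.3 ± 1.53 FPKM in sh-LINC01977 libraries (log2 fold change 0.25, adjusted p = 0.0399 by edgeR), but the call was lost with any library left out. The 2 tested small leucine-rich genes, of which TSKU was the more abundant (11.5 ± 0.954 and 9.66 ± 1.66 FPKM), and the 2 large matrix proteoglycans, agrin (AGRN, 17.6 ± 2.36 and 15.2 ± 1.83 FPKM) and perlecan (HSPG2, 7.20 ± 0.507 and 9.28 ± 1.33 FPKM), did not pass. Decorin (DCN) and lumican (LUM), relatives of BGN, had no entry among the 29153 genes and could not be read. Of the other glypicans, GPC2 and GPC5 were below the filter, GPC2 at 0.209 ± 0.127 and 0.366 ± 0.0772 FPKM.

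Of 5 tested matricellular genes besides the SPARC family, 3 were lower and 1 was higher. Over all tested genes 8.07% were lower and 7.05% higher, and with so few genes nothing is read from the count. SPP1, osteopontin, had 444, 421 and 475 FPKM in sh-NC and 302, 305 and 321 FPKM in sh-LINC01977 libraries (log2 fold change -0.59, BH-adjusted p = 0.00130, edgeR quasi-likelihood). CCN2, also called CTGF, was lower (-0.54, adjusted p = 0.0113 by edgeR), and so was THBS1, thrombospondin 1 (-0.25, adjusted p = 0.00984), a call that limma on log2(FPKM + 0.1) did not make. CCN1, also called CYR61 and a relative of CCN2, was higher, at 5.16 ± 0.341 against 7.80 ± 0.299 FPKM (0.53, adjusted p = 0.00943 by edgeR). The family members CCN1 and CCN2 thus went apart. SPARC was lower too, but it was picked for that change, so nothing is read from its likeness to the lower genes.

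The enzymes that build the sugar chains also divided. UGDH, which makes the glucuronic acid donor for all these chains, was higher, at 86.4 ± 5.63 against 111 ± 2.61 FPKM (log2 fold change 0.29, BH-adjusted p = 0.0135, edgeR quasi-likelihood), and the other 6 tested linker genes did not pass. Of 11 tested heparan sulfate genes, 3 were lower and 1 was higher, with a median log2 fold change of -0.21. The shares over all tested genes were 8.07% and 7.05%, and nothing is read from so small a count. The lower ones were HS6ST1, a 6-O-sulfotransferase, at 39.2 ± 2.94 against 24.9 ± 1.59 FPKM (-0.72, adjusted p = 0.00159), NDST1, which starts chain sulfation, at 7.25 ± 0.0727 against 4.90 ± 0.422 FPKM (-0.63, adjusted p = 0.00229), and the 3-O-sulfotransferase HS3ST3B1 (-0.32, adjusted p = 0.0229, all by edgeR), whose call was lost without 5 of the 6 libraries in turn, with library totals as the scaling and in limma on log2 FPKM. The higher one was HS2ST1, a 2-O-sulfotransferase, at 22.0 ± 1.28 against 28.9 ± 0.288 FPKM (0.33, adjusted p = 0.0101 by edgeR). Of 10 tested chondroitin and dermatan sulfate genes, the sulfotransferases CHST13 (-0.58, adjusted p = 0.00382) and CHST3 (-0.36, adjusted p = 0.0146, lost without 3 of the 6 libraries in turn) were lower by edgeR, and CHPF, a chondroitin polymerizing factor and the most abundant of them, was at 27.3 ± 1.22 and 30.7 ± 3.86 FPKM and did not pass. Of the sulfotransferases named, HS6ST1, NDST1 and CHST13 kept their lower call with each library left out, and HS2ST1 its higher call.

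Among 5 tested genes whose products cut or shed proteoglycans, ADAMTS4 and FURIN were higher. Over all tested genes 7.05% were higher by the same call, and with so few genes nothing is read from the count. ADAMTS4, a protease that cleaves versican and aggrecan, had 0.566, 0.556 and 0.433 FPKM in sh-NC and 1.02, 0.914 and 1.04 FPKM in sh-LINC01977 libraries (log2 fold change 0.87, BH-adjusted p = 0.00929, edgeR quasi-likelihood). FURIN, a convertase that cleaves GPC3 among many substrates, was also higher, from 33.8 ± 0.243 to 48.4 ± 3.15 FPKM (0.45, adjusted p = 0.00359 by edgeR). NOTUM, a Wnt-inactivating esterase that also acts on glypican anchors in some systems, was at 81.2 ± 0.807 and 88.9 ± 7.52 FPKM and did not pass. ADAMTS4 and VCAN each stood higher in all 3 sh-LINC01977 libraries than in any sh-NC library, as did 18.8% of all tested genes. The VCAN call depended on single libraries, as given above, and a link between the genes was not tested.

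**Figure D4:**
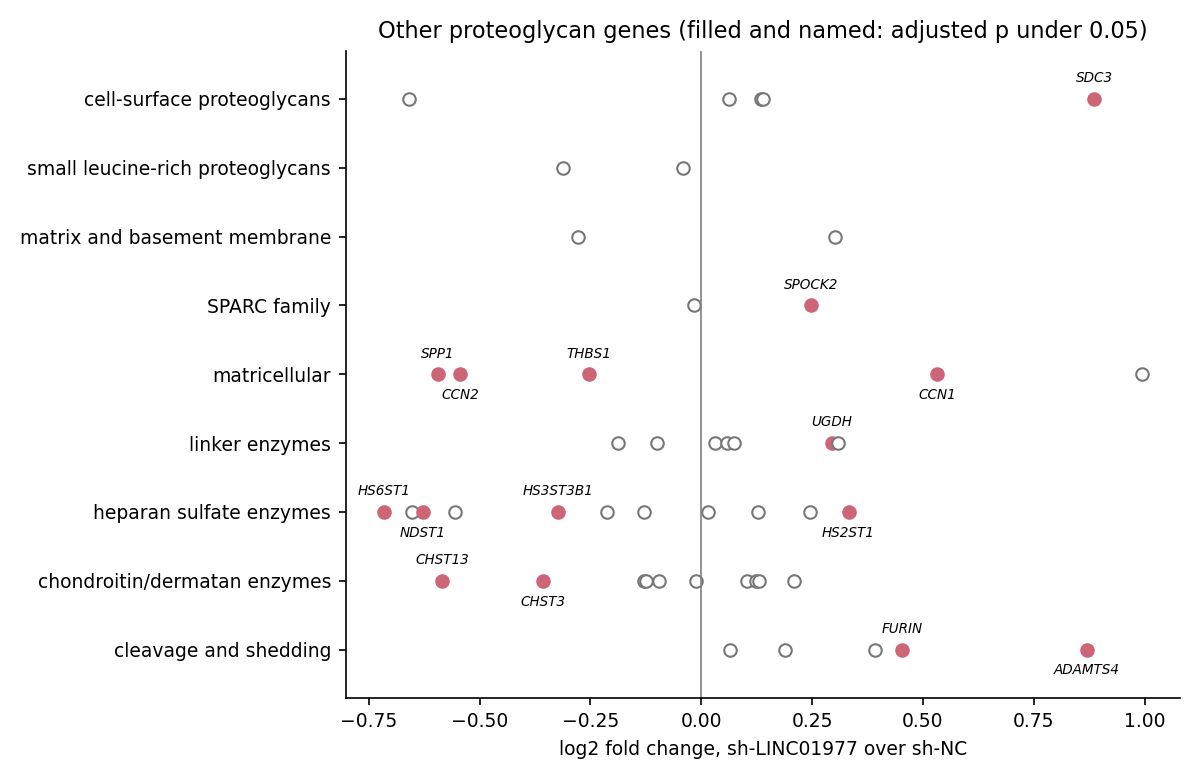
Log2 fold change, sh-LINC01977 over sh-NC, of each tested gene of the proteoglycan lists, 1 row per list, with filled points for genes past an adjusted p of 0.05 in edgeR. Both directions are present, and all points lie within 1 log2 unit of 0.

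The genes most like BGN and SPARC in pattern were taken as those with the smallest root mean square difference between log2(CPM + 0.5) profiles, each centred on its mean over the 6 libraries. Nearest to BGN were the long noncoding RNA UCA1 (difference 0.233), the secreted protease KLK6 (0.555) and the endocytic GTPase DNM1 (0.572), and no tested gene came within 0.2 of it. DNM1 had 0.156, 0.275 and 0.292 FPKM in sh-NC and 1.12, 1.03 and 1.09 FPKM in sh-LINC01977 libraries. For SPARC 412 tested genes came within 0.2. Nearest were SERPINA7, the thyroxine-binding globulin made by liver (0.0457), UBD, a ubiquitin-like protein (0.0524), and NR5A1, a nuclear receptor of steroid-forming tissues (0.0546). SERPINA7 had 35.2, 34.4 and 37.8 FPKM in sh-NC and 21.4, 22.5 and 21.9 FPKM in sh-LINC01977 libraries. The measure rises with the size of a change, and the 0.5 added to CPM exceeds the BGN level in sh-NC libraries, so these distances restate the changes for which BGN and SPARC were picked.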

How the data were processed

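Counts and FPKM of 6 HepG2 libraries, 3 sh-NC and 3 sh-LINC01977, were used, with groups and replicate numbers from the labels. The deposited counts are whole, unnormalized numbers for each gene. A count of 4 occurred in 8101 gene and library pairs, against 2780 for 3 and 1758 for 5, so 1 count may not stand for 1 fragment and small counts are less precise than they look; counts divided by 4 were therefore tried. The authors also deposited FPKM values, which are scaled to transcript length and library total. The submitters' processing notes name bcl2fastq 2.0, HISAT2, StringTie, DESeq2, limma and hg38 without roles or order, and the annotation and use of strand are not given in the sources used here. Of 29153 identifiers 29051 were in GENCODE 29, and 28055, including all 7 members, had the same start and end there. The table also carries KEGG annotation, which was not used.

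Counts were tested with edgeR 4.0.16 in R 4.3.3 (TMM scaling, quasi-likelihood test, p adjusted by Benjamini-Hochberg) over 13452 genes whose mean FPKM reached 0.5, and GPC4 was read from a fit of all genes. Single values were compared by exact two-sided permutation tests. The steps were tested on simulated data. Alternatives were RLE factors, library totals, no filter or a mean FPKM of 1, DESeq2 1.42.0, limma 3.58.1 on log2(FPKM + 0.1), (FPKM + 1) or (FPKM + 0.01), a replicate block, the counts divided by 4, and leaving out each library. Members and lists were chosen with earlier results of these data known. Named genes were all members, of each list up to 4 genes past an adjusted p of 0.05 and the most abundant, the 3 nearest profiles to BGN and to SPARC, tested genes within 250 kb of either, and LINC01977. 1 gene within that distance of BGN is not reported here. HSPG2, GPC2 and genes overlapping members were named after their values were seen. The smallest counts cover few fragments, so values under the filter have little precision.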

Additional observations from a re-analysis of the deposited data

How the results depend on the processing

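Fold changes and counts were recomputed under 14 to 16 alternatives each, and the glypican sums without each library, where their differences of -0.85 to -0.59 percentage points and 3.73 to 4.49 FPKM kept their direction. GPC6 stayed past the threshold under all 16, with log2 fold changes of 0.43 to 0.54, and GPC3 stayed short of it, at 0.04 to 0.14. BGN was 3.38 with limma on log2(FPKM + 0.1) and 1.56 with a pseudocount of 1, which shrinks the fold of a gene at this level. SPARC was -0.69 with a pseudocount of 1, against -0.75 with a pseudocount of 0.01 and with library totals. Leaving out single libraries gave 0.44 to 0.61 for GPC1, 0.50 to 0.79 for VCAN and -0.14 to 0.96 for GPC4, and the calls of GPC1 and VCAN were lost as stated above, with adjusted p up to 0.0573 and 0.0903 in edgeR. GPC4 turned negative without the second (-0.08) or the third (-0.14) sh-NC library. The neighbouring AC091982.4 ranged from -0.65 to 0.071 and AL354811.1 from -0.65 to 0.00081, turning positive without the second sh-LINC01977 and the first sh-NC library, and neither passed in any of these fits. The cause was not tested. The proteoglycan lists gave 5 to 9 higher and 6 to 12 lower genes.

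Among tested genes, 948 rose and 1085 fell past an adjusted p of 0.05. Scaling by library totals gave 1455 and 768, and moved the median log2 fold change of all genes to 0.06. With limma on log2(FPKM + 0.1) there were 1269 and 729, with a pseudocount of 0.01 there were 1266 and 722, and with single libraries left out 549 to 669 and 627 to 738. The study's thresholds gave 209 and 141 genes, against 732 and 351 without the filter and 59 and 41 with limma on log2(FPKM + 1). A replicate block, fitted because both groups carry the numbers 1 to 3, kept the calls of GPC1 (0.54, adjusted p = 0.0393 by edgeR), GPC6 (0.47, 0.0267) and VCAN (0.69, 0.0456), left GPC3 uncalled (0.07, 0.400), gave 636 higher and 754 lower genes, and ended the calls of CHST3 (adjusted p = 0.0531 by edgeR), ZNF275 (0.0803) and HS3ST3B1 (0.0703). Deviations of libraries with the same number correlated at -0.034, 0.0051 and 0.061, and the first sh-NC library correlated best with the second sh-LINC01977 library (0.052), so the numbers were not taken as pairs. Values below the filter, such as GPC4, rest on few counts.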
